A study of Mus musculus with 6 samples.

Results

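The genes described here are the mouse histone genes, chosen by their symbols: every row of the count table whose symbol starts with Hist1h, Hist2h, Hist3h or Hist4h, or with H2af, H3f or H1f. The rule took 84 of the 24197 genes in the table. By symbol, 68 of these (Hist) are grouped as replication-dependent histone genes, a pseudogene among them, and 16 (H2af, H3f, H1f) as variant histone genes.

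The RNA came from inguinal stromal-vascular cells of C57BL/6 mice, the fraction of adipose tissue that holds adipocyte progenitors, fibroblasts, vascular and immune cells. The cells had received either a retrovirus carrying Prdm16, a zinc-finger protein known as a regulator of brown and beige adipocyte genes (n = 3 libraries, called Prdm16), or a control (puro) retrovirus (n = 3 libraries, called Puro). The cells of all 6 libraries grew in a standard medium, and polyadenylated RNA was sequenced. The sources used here give neither the promoter that drives the transgene nor the time between infection and harvest. Separate cultures or animals are not stated for the replicates either, so each p-value reflects the spread between 3 libraries a group, and that spread may be technical.

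Histones are the proteins around which DNA is wound. The core particle holds pairs of H2A, H2B, H3 and H4, and the linker histone H1 sits on the DNA between particles. Replication-dependent histone genes lie in clusters without introns and are transcribed in S phase, when new DNA needs new histones. Their mRNAs normally end in a conserved stem-loop rather than a poly(A) tail. Stem-loop binding protein holds that stem-loop through processing, translation and decay. Some of these genes are also known to make longer, polyadenylated transcripts, described in differentiating and resting cells. The variant histone genes mostly make polyadenylated mRNAs, and many have introns and are transcribed outside S phase too. A poly(A) selection therefore reads the variants as ordinary mRNAs, while of the replication-dependent genes it reads the polyadenylated transcripts and whatever else the selection lets through. Levels below are levels of RNA recovered after that selection.

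The stem-loop is shown because it is the mark of the replication-dependent mRNA and bears on what the selection recovers. The motif GGNNNTTNTNANNNCC with paired stem bases was searched after the stop codon of the GENCODE M21 transcripts (GRCm38) on the transcript strand. It was found in 46 of the 68 replication-dependent genes (67.6%), in 1 of the 16 variant genes (H2afx) and in 13 of 21795 other protein-coding genes (0.0596%). Of the 22 replication-dependent genes without it, 15 had fewer than 16 bases annotated after the stop codon, the length of the motif. In the sequences below, given as DNA with the stem in capitals and the loop in lower case, the H4 genes differ from most others by their stem.
Hist1h1c and 25 other genes of the H1, H2A, H2B and H3 classes: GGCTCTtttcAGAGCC
Hist1h4h and 6 other H4 genes: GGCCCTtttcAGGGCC
Hist1h4i and Hist2h4: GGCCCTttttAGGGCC
Hist1h4a: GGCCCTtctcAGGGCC
Hist1h3g: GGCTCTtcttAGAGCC
H2afx: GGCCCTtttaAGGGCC
Several annotated transcripts run on beyond the stem-loop: by 840 bases in Hist1h1c, by 330 in Hist1h4i, by 1643 in Hist3h2a and by 1861 in Hist1h2be. The annotated transcripts of Hist1h2bc and Hist2h2be hold no match in 742 and 2192 bases after the stop codon.

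Counts per library totalled between 28169059 and 35798201, and a floor of 3 counts, taken for a count of 0, equalled 0.0852 to 0.104 CPM. CPM normalises a count by its library's TMM-scaled total. Prdm16 itself had 98437, 72525 and 89054 counts in the Prdm16 libraries, against 14, 22 and 25 in the Puro libraries, and reads of the delivered and the endogenous gene cannot be told apart. Most of the transcriptome differed: the quasi-likelihood test of edgeR, with Benjamini-Hochberg adjustment, called 75.6% of the 13805 genes tested at an adjusted p below 0.05, 37.5% as higher and 38% as lower. Fold changes are given as log2 of Prdm16 over Puro ± SE, and their median over all tested genes was −0.01.

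Replication-dependent histone RNA was lower in the Prdm16 libraries, and variant histone RNA was higher. Summed over all 68 replication-dependent rows, whether tested or not, there were 41.8, 32.7 and 38.3 CPM in the Prdm16 libraries, against 149, 153 and 182 CPM in the Puro libraries. The groups did not overlap, and the Puro mean was 4.29 times the Prdm16 mean (37.6 ± 4.59 CPM in Prdm16 libraries and 161 ± 18.2 CPM in Puro libraries, SD, n = 3 each). The 16 variant rows summed to 2713 ± 196 CPM in the Prdm16 libraries and to 1613 ± 78.0 CPM in the Puro libraries. Replication-dependent genes made up 1.28% to 1.41% of all histone counts in the Prdm16 libraries, against 8.69% to 9.65% in the Puro libraries. In bulk RNA, fewer cells of a type and less RNA per cell cannot be told apart.

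**Figure D1:**
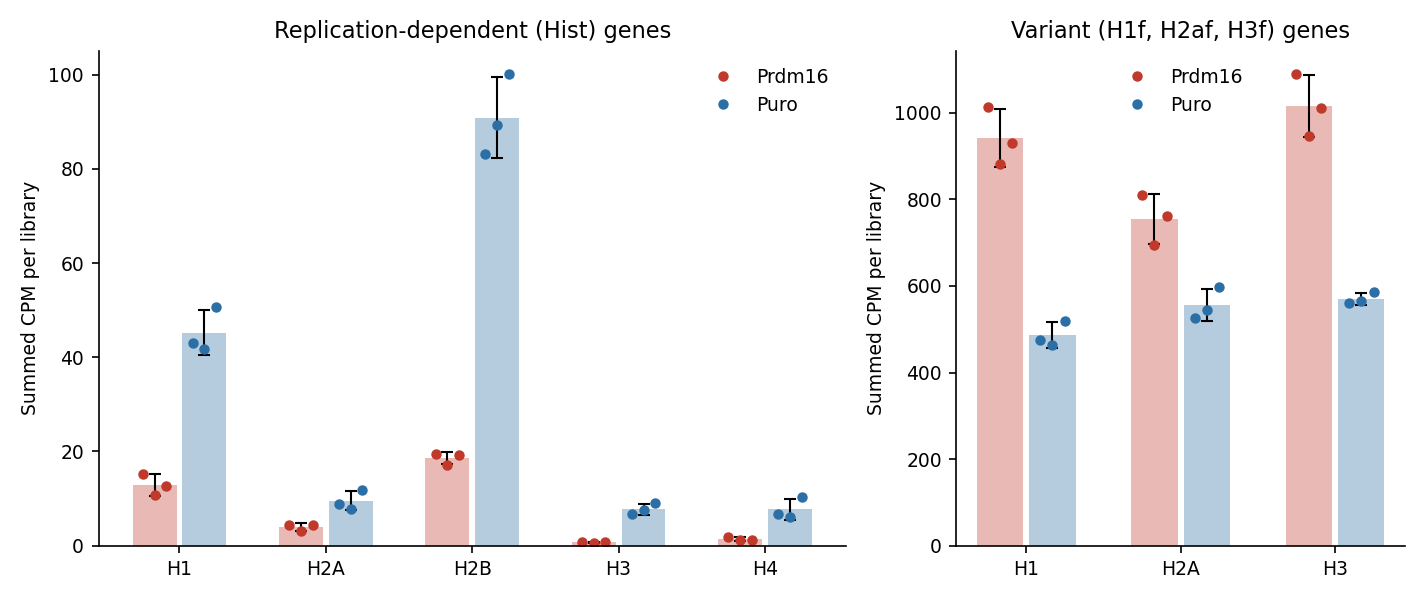
Summed CPM per library of the replication-dependent genes (left, 68 rows) and the variant genes (right, 16 rows) by histone class; points are single libraries, bars are means and error bars are SD (n = 3), both y axes start at 0 and their scales differ. In each of the 5 replication-dependent classes the 3 Prdm16 libraries lie below the 3 Puro libraries, and in each of the 3 variant classes they lie above.

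The filter on low counts kept 32 of the 84 rows: 22 of the 68 replication-dependent and 10 of the 16 variant genes. Of the 22, 21 were lower and 1 was higher, where 38% of all tested genes were lower. The 21 include the identical rows of Hist2h3c1 and Hist2h3c2, which are 1 measurement. A log2 fold change below −1 was reached by 20 of the 22 and by 12.1% of all tested genes. The libraries of both groups did not overlap for any of the 22, nor for 77.6% of all tested genes. This count needs care, because 16 of the 22 reached the count minimum in the Puro group only and so had to be lower to enter the test. The 6 that reached it in both groups were Hist1h2bc, Hist1h1c, Hist3h2a, Hist1h4i and Hist1h2be, which were lower, and Hist2h2be, which was higher. The remaining 46 replication-dependent rows held 99 counts in the Prdm16 libraries and 501 in the Puro libraries in all. Of those 46, 7 had no counts, 35 had more counts in the Puro group, 1 (Hist3h2ba, 7 counts in Prdm16 and 1 in Puro libraries) had more in the Prdm16 group, and 3 (Hist1h2ag, Hist4h4 and the pseudogene Hist3h2bb-ps) had 1 count in each group. Tallies of untested rows, here and by class below, compare raw counts, which are not scaled for library totals. With that scaling, the summed CPM of the 46 rows had a log2 ratio of −2.33. No such tally was made over all untested genes, so an excess over rare genes in general was not tested.

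Linker histone H1 genes of the replication-dependent kind were lower in the Prdm16 libraries. Hist1h1c, the most abundant of them, had 14.5, 10.2 and 11.8 CPM in the Prdm16 libraries, against 38.7, 37.9 and 46.0 CPM in the Puro libraries. Every Puro library lay above every Prdm16 library, and the log2 fold change was −1.74 ± 0.11 (adjusted p = 8.93e-08). The other 3 H1 genes named by rank of level were rarer and reached the count minimum in the Puro group only. Hist1h1b had 9, 4 and 10 counts in the Prdm16 libraries and 59, 60 and 62 in the Puro libraries, a log2 fold change of −2.93 ± 0.24 (adjusted p = 7.07e-07). Hist1h1d had 7, 1 and 7 counts in Prdm16 libraries and 29, 29 and 45 in Puro libraries (−2.72 ± 0.40, adjusted p = 8.65e-05). Hist1h1a had 4, 7 and 3 counts in Prdm16 libraries and 29, 29 and 25 in Puro libraries (−2.51 ± 0.34, adjusted p = 4.61e-05). None of these 3 genes had a Prdm16 library as high as its lowest Puro library. Hist1h1e, the fifth tested H1 gene, had a log2 fold change of −2.19 ± 0.49 and also reached the count minimum in the Puro group only. Its annotated exons overlap those of Hist1h2be, so reads of both may be mixed. The testis linker gene Hist1h1t was not tested (8 counts in Prdm16 and 11 in Puro libraries). All 6 rows together held 12.9 CPM in Prdm16 and 45.2 CPM in Puro libraries, a log2 ratio of −1.81. Without Hist1h1c they held 0.727 CPM in Prdm16 and 4.38 CPM in Puro libraries, a log2 ratio of −2.59.

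Among H2A genes, which form a dimer with H2B on the outer faces of the nucleosome, most of the signal came from Hist3h2a. Hist3h2a had 4.0, 2.83 and 4.31 CPM in the Prdm16 libraries, against 7.26, 6.31 and 8.73 CPM in the Puro libraries. The groups did not overlap, but the change was the smallest of the 21 decreases, at −0.99 ± 0.16 (adjusted p = 0.000184). Its annotated exons overlap those of Trim17. Hist1h2ac, with 3, 1 and 0 counts in Prdm16 libraries and 13, 15 and 28 in Puro libraries, changed by −3.66 ± 0.64 (adjusted p = 0.000304). Few reads set that value, and without Prdm16 replicate 1 it was −4.83. Hist1h2ah had 2, 1 and 2 counts in Prdm16 libraries, against 10, 11 and 26 in Puro libraries (−3.11 ± 0.61, adjusted p = 0.00074). All 3 tested H2A genes were lower with no overlap between groups, where 38% of all tested genes were lower and 77.6% did not overlap. Hist1h2ac and Hist1h2ah reached the count minimum in the Puro group only and so had to be lower to enter the test. The other 15 of the 18 H2A rows were too rare to test. Of those 15, 11 held more counts in the Puro group, 3 held none and 1 was equal. Hist1h2ad had 1 count in the Prdm16 group and 33 in the Puro group, a ratio of 0.0309 whose exact 95% counting interval ran from 0.000759 to 0.185.

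The H2B genes held both the most abundant replication-dependent RNA and the only increase. Hist1h2bc had 14.6, 13 and 14.6 CPM in the Prdm16 libraries, against 74.0, 78.7 and 88.4 CPM in the Puro libraries. The groups lay far apart, and the log2 fold change of −2.51 ± 0.07 (adjusted p = 1.25e-10), 5.70-fold lower, had the smallest SE of the replication-dependent genes. Hist1h2bc and Hist1h1c together took 69.0% to 71.0% of replication-dependent counts in Prdm16 libraries and 73.9% to 76.4% in Puro libraries. Without both, the other 66 rows summed to 11.4 ± 1.70 CPM in the Prdm16 libraries and to 39.8 ± 6.61 CPM in the Puro libraries, a log2 ratio of −1.81, against −2.10 with them.

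Hist2h2be, an H2B gene of the Hist2 cluster, was the exception. Its place among the replication-dependent genes rests on its symbol, as does that of every other gene in that group. No stem-loop was found in its annotated transcript, nor in that of Hist1h2bc, which was lower. Hist2h2be had 3.27, 2.90 and 2.70 CPM in the Prdm16 libraries, against 1.35, 1.35 and 1.94 CPM in the Puro libraries. All Prdm16 libraries lay above all Puro libraries, and the log2 fold change was 0.93 ± 0.17 (adjusted p = 0.000398). The call was kept, at 0.84 to 1.13, when each library was left out in turn. Hist2h2bb, of the same class and the same cluster, went the other way. It had 0.511, 0.242 and 0.240 CPM in the Prdm16 libraries and 3.26, 4.13 and 3.10 CPM in the Puro libraries (−3.36 ± 0.25, adjusted p = 3.24e-07). The annotated exons of Hist2h2bb overlap those of Gm20628 and Gm42743. Hist1h2be had 0.454, 0.484 and 0.719 CPM in Prdm16 libraries, against 1.68, 2.12 and 1.82 CPM in Puro libraries (−1.76 ± 0.21, adjusted p = 1.88e-05), with the exon overlap with Hist1h1e given above. Neither gene's groups overlapped. Hist1h2bj had 1, 1 and 5 counts in Prdm16 libraries and 25, 22 and 42 in Puro libraries (−3.57 ± 0.52, adjusted p = 7.54e-05). Leaving out Prdm16 replicate 3, the library with the 5 counts, gave −4.68. Hist1h2bg, the sixth tested H2B gene, was also lower (−2.36 ± 0.30). Hist2h2bb, Hist1h2bj and Hist1h2bg reached the count minimum in the Puro group only and so had to be lower to enter the test.

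**Figure D2:**
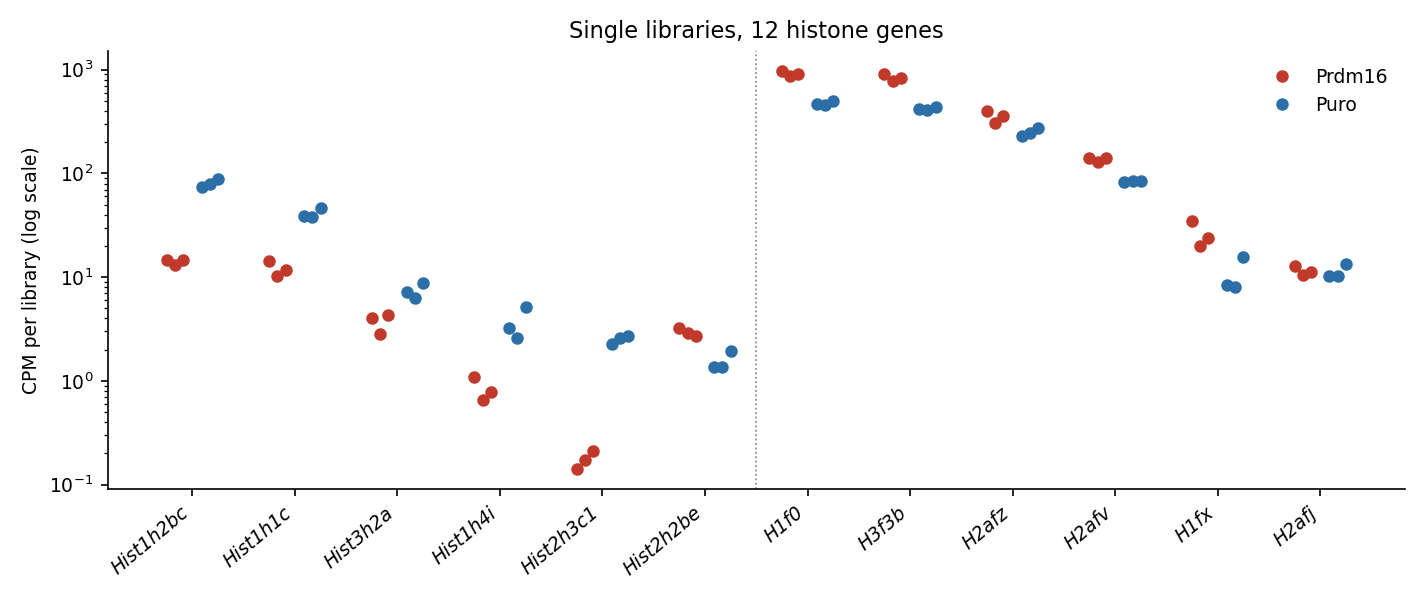
CPM of 12 histone genes in each of the 6 libraries, on a log10 axis; each point is 1 library, Prdm16 left and Puro right for each gene, with replication-dependent genes left of the dotted line and variant genes right of it. Hist2h2be stands apart from the other 5 replication-dependent genes, with its 3 Prdm16 libraries above its 3 Puro libraries, and the H2afj libraries overlap.

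H3 and H4, the pair that starts nucleosome assembly, were the scarcest replication-dependent classes. All 12 H3 rows together summed to 0.689 CPM in the Prdm16 libraries and to 7.74 CPM in the Puro libraries, a log2 ratio of −3.49, the largest decrease of the 5 classes. The rows of Hist2h3c1 and Hist2h3c2 were identical in all libraries, with 5, 5 and 7 counts in the Prdm16 libraries, against 70, 91 and 91 in the Puro libraries. They count as 1 measurement, though both enter the H3 sum, each with 0.175 CPM in Prdm16 and 2.53 CPM in Puro libraries. The log2 fold change of that measurement, −3.83 ± 0.23 (adjusted p = 4.44e-08), 14.2-fold lower, was the largest decrease among tested histone genes. The annotated exons of Hist2h3c1 overlap those of Gm20634. Hist1h3d had 5, 2 and 5 counts in Prdm16 libraries and 21, 28 and 28 in Puro libraries (−2.62 ± 0.33, adjusted p = 2.37e-05). Hist1h3g had 6, 1 and 2 counts in Prdm16 libraries and 17, 25 and 36 in Puro libraries (−3.04 ± 0.48, adjusted p = 0.000148), and without Prdm16 replicate 1 its value was −3.91. No Prdm16 library of these genes reached a Puro library. All 4 tested H3 rows reached the count minimum in the Puro group only and so had to be lower to enter the test. The other 8 H3 rows were not tested, and all 8 held more counts in the Puro group. Hist1h3c had 4 counts in Prdm16 and 45 in Puro libraries, a ratio of 0.0906 (exact 95% counting interval 0.0237 to 0.249). Hist1h3i had 0 counts in Prdm16 and 25 in Puro libraries, so it was at least 8.17-fold lower against a floor of 3 counts over the group.

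For H4, Hist1h4i was the most abundant gene. It had 1.08, 0.656 and 0.779 CPM in the Prdm16 libraries, against 3.23, 2.58 and 5.13 CPM in the Puro libraries. Puro replicate 3 was the highest and the groups did not overlap, with a log2 fold change of −2.10 ± 0.29 (adjusted p = 5.62e-05). Hist1h4h had 5, 4 and 2 counts in Prdm16 libraries and 29, 40 and 64 in Puro libraries (−3.52 ± 0.44, adjusted p = 2.14e-05). Hist1h4k had 8, 5 and 7 counts in Prdm16 libraries and 18, 33 and 43 in Puro libraries (−2.18 ± 0.37, adjusted p = 0.000252). Hist1h4a had 3, 2 and 0 counts in Prdm16 libraries and 14, 18 and 17 in Puro libraries (−3.17 ± 0.52, adjusted p = 0.000183), or −3.78 without Prdm16 replicate 1. The groups of these 3 genes did not overlap, but all 3 reached the count minimum in the Puro group only and so had to be lower. The 13 H4 rows summed to 1.44 CPM in the Prdm16 libraries and to 7.73 CPM in the Puro libraries (log2 ratio −2.43). Of the 9 untested H4 rows, 8 held more counts in the Puro group and 1 was equal.

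Near-identical copies limit what a single row means. The annotation gives all 13 H4 genes the same protein. The sources used here do not say how reads that fit several copies were counted, and such reads may have been split, dropped, given to 1 copy or counted once for each copy. Hist2h3c1 and Hist2h3c2, and likewise Hist2h2aa1 and Hist2h2aa2, formed 2 pairs of identical rows. In the whole table, 45 of 14447 rows with at least 30 counts had an identical row. With each identical pair counted once the summed log2 ratio was −2.08, and with copies of the same protein summed before the fit 15 rows were lower and 1 was higher. That fit did not merge Hist2h3c1 with Hist2h3c2, since their annotated proteins differ in length (181 and 136 residues). The same reads thus entered it under both genes. Variant genes with processed pseudogenes are uncertain for the same reason, as are genes whose exons overlap another annotated gene, such as H3f3a and its antisense gene, since no source used here tells whether strand was used in counting.

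By position, the summed level over all rows, tested or not, was lower in 3 of the 4 clusters. The Hist1 cluster on chromosome 13 summed to 30.02 CPM in the Prdm16 libraries and to 143 CPM in the Puro libraries, and 17 of its 54 genes were tested and lower, 13 of them through the Puro group alone. Among all tested genes, 38% were lower. The Hist2 cluster on chromosome 3 summed to 3.75 CPM in Prdm16 and 10.6 CPM in Puro libraries. The identical rows of Hist2h3c1 and Hist2h3c2, each at 0.175 CPM in Prdm16 and 2.53 CPM in Puro libraries, both enter that sum. Of the cluster's 4 tested genes, 3 were lower, each through the Puro group alone, and Hist2h2be was higher. Those 3 include the identical pair, which is 1 measurement. The Hist3 cluster on chromosome 11 summed to 3.80 CPM in Prdm16 and 7.45 CPM in Puro libraries, nearly all of it Hist3h2a. The single Hist4 gene had 1 count in each group. Over all tested genes, the median log2 fold change was −0.01 on chromosome 13, −0.19 on chromosome 3 and −0.05 on chromosome 11.

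**Figure D3:**
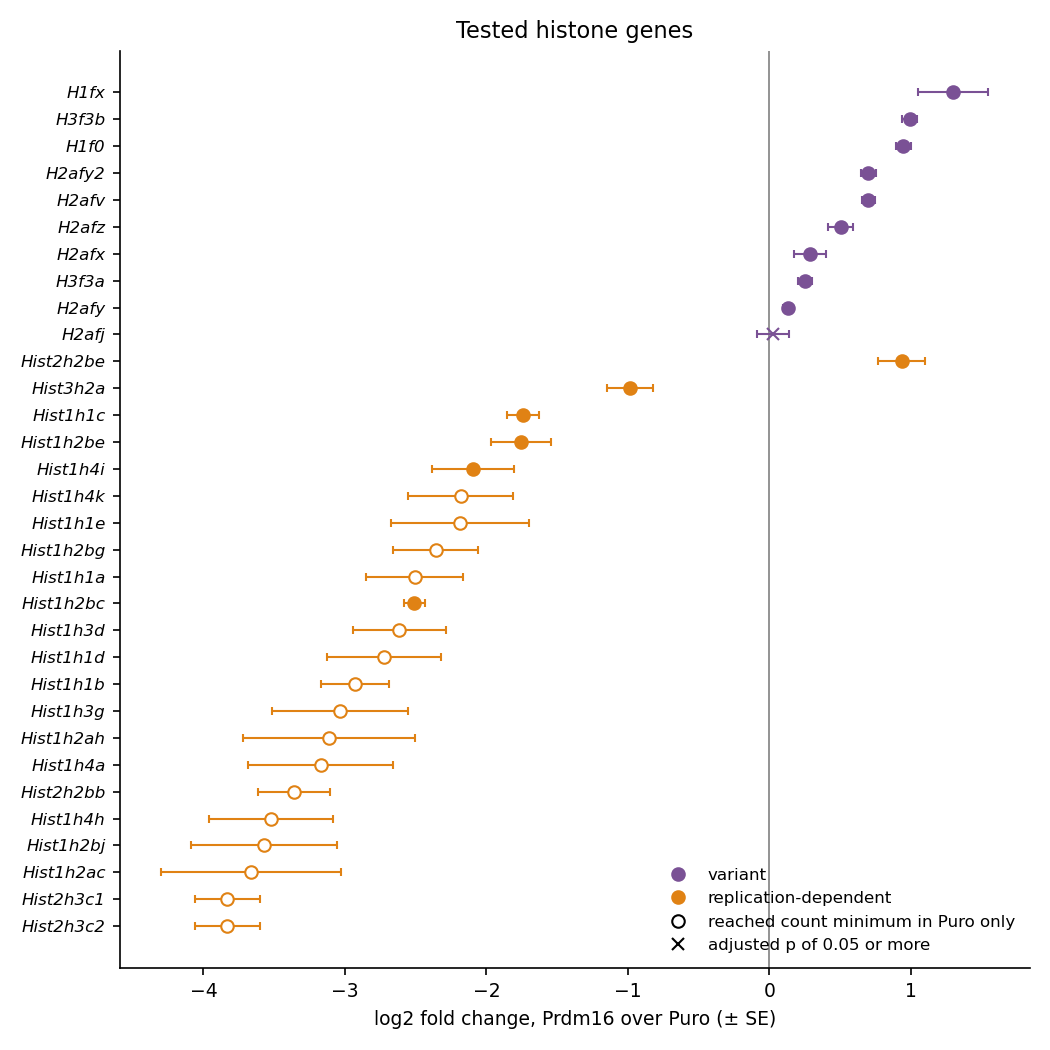
Log2 fold change, Prdm16 over Puro, of the 32 tested histone genes, with SE as error bars (n = 3 libraries per group); purple marks variant and orange replication-dependent genes, open circles are genes that reached the count minimum in Puro only, and the cross is the gene that did not pass the test. Variant genes lie at or right of 0 and replication-dependent genes left of it, except Hist2h2be at 0.93.

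The variant genes were mostly higher in the Prdm16 libraries: 9 of the 10 tested passed as higher, where 37.5% of all tested genes were higher. All 10 reached the count minimum in both groups, and their median log2 fold change was 0.60. None was lower, the groups did not overlap for 8 of the 10, close to the 77.6% of all tested genes, and H1fx alone was above a log2 fold change of 1, a size that 9.69% of all tested genes reached. The 6 others held at most 6 counts in either group: 4 (H2afb1, H2afb2, H2afb3 and H1fnt) had none, H2afy3 had 6 counts in Prdm16 and 2 in Puro libraries, and the oocyte linker gene H1foo had 0 counts in Prdm16 and 3 in Puro libraries.

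H1f0, a linker histone known to accumulate in cells that stop dividing or differentiate, was the most abundant histone RNA per length. It had 980, 862 and 907 CPM in the Prdm16 libraries, against 467, 457 and 504 CPM in the Puro libraries. All Prdm16 libraries were far above all Puro libraries, with a log2 fold change of 0.95 ± 0.05 (adjusted p = 2.40e-08). H1f0 lies on chromosome 15, where the median log2 fold change of all tested genes was −0.37, and with the chromosome medians removed its value was 1.32. The gene took 95.1% to 96.5% of all linker histone counts in Prdm16 libraries and 88.4% to 90.1% in Puro libraries. H1fx, the other somatic linker variant, had 35, 20.1 and 23.6 CPM in Prdm16 libraries, against 8.39, 8.11 and 15.6 CPM in Puro libraries. Prdm16 replicate 1 and Puro replicate 3 stood above the rest of their groups, the groups did not overlap, and the log2 fold change was 1.30 ± 0.25 (adjusted p = 0.000601), with the largest SE of the variants. Linker histone RNA thus differed by kind: the variant H1 rows summed to 943 CPM in Prdm16 and 487 CPM in Puro libraries, while the replication-dependent H1 rows were lower.

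H3f3a and H3f3b encode the same protein, the H3 variant that is deposited outside replication at active genes. H3f3b had 905, 780 and 832 CPM in the Prdm16 libraries, against 415, 409 and 441 CPM in the Puro libraries (0.99 ± 0.05, adjusted p = 1.86e-08). H3f3a had 184, 166 and 180 CPM in Prdm16 libraries, against 145, 156 and 144 CPM in Puro libraries (0.25 ± 0.05, adjusted p = 0.000636). Neither gene's groups overlapped, and the share of H3f3b in the counts of both genes was 82.2% to 83.1% in Prdm16 libraries and 72.4% to 75.4% in Puro libraries. Those shares did not overlap either.

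H2afz and H2afv encode the forms of H2A.Z, a variant found at promoters and regulatory elements. H2afz had 396, 307 and 358 CPM in Prdm16 libraries, against 227, 245 and 277 CPM in Puro libraries (0.50 ± 0.09, adjusted p = 0.000336). H2afv had 141, 128 and 140 CPM in Prdm16 libraries, against 82.1, 85.3 and 84.4 CPM in Puro libraries (0.70 ± 0.04, adjusted p = 7.64e-08). In both genes every Prdm16 library was above every Puro library. The share of H2afz in their joint counts was 70.5% to 73.8% in Prdm16 libraries and 73.5% to 76.6% in Puro libraries, which overlap.

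H2afy and H2afy2 encode macroH2A proteins, large variants associated with silent chromatin. H2afy2 had 39.8, 40.4 and 40.1 CPM in the Prdm16 libraries, against 26.5, 24.1 and 23.5 CPM in the Puro libraries (0.70 ± 0.05, adjusted p = 3.89e-07); its exons overlap those of Aifm2. H2afy had 123, 128 and 127 CPM in Prdm16 libraries and 118, 115 and 113 CPM in Puro libraries, a smaller increase of 0.13 ± 0.04 (adjusted p = 0.00789). The libraries of each gene did not overlap between groups. H2afy2 took 23.9% to 24.5% of the counts of both in Prdm16 libraries and 17.2% to 18.4% in Puro libraries.

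H2afx, whose protein is phosphorylated around DNA breaks and whose transcript carries the stem-loop shown above, is known to make both a short stem-loop form and a longer polyadenylated form. It had 97.6, 78.9 and 85.3 CPM in Prdm16 libraries and 62.2, 65.7 and 86.8 CPM in Puro libraries. The groups overlapped, with Puro replicate 3 above Prdm16 replicates 2 and 3, and the log2 fold change was 0.29 ± 0.11 (adjusted p = 0.0386). That call was lost under 6 of the alternative fits and kept under the others, and it did not reach an adjusted p of 0.01. The log2 fold change was 0.27 (adjusted p = 0.0513) with upper-quartile scaling and 0.29 (0.147) with DESeq2, and the call was also lost without Prdm16 replicate 1 (0.21), Prdm16 replicate 3 (0.31), Puro replicate 1 (0.20) or Puro replicate 2 (0.23). Without Puro replicate 3 the value was 0.45. H2afj, a replication-independent H2A known from senescent human fibroblasts, had 12.7, 10.5 and 11.1 CPM in Prdm16 libraries and 10.2, 10.3 and 13.3 CPM in Puro libraries. Its groups overlapped and it did not pass the test (0.02 ± 0.11, adjusted p = 0.855).

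Divided by exon length, in mean CPM per kb, H1f0 stood at 446 in Prdm16 and 232 in Puro libraries and H3f3b at 282 in Prdm16 and 142 in Puro libraries. H2afz stood at 199 in Prdm16 and 141 in Puro libraries and H2afv at 83.4 in Prdm16 and 51.4 in Puro libraries. Hist1h2bc, the highest replication-dependent gene on that scale, stood at 12.2 in Prdm16 and 69.5 in Puro libraries, and Hist1h1c at 7.79 in Prdm16 and 26.2 in Puro libraries. On the same scale Hist1h2bc was below H3f3a in the Prdm16 libraries, where H3f3a stood at 50.3, and above it in the Puro libraries, where H3f3a stood at 42.3. These levels rest on the union of annotated exons, which can be longer than the transcripts present.

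The promoters are shown for 2 genes that were lower and 2 that were higher, because known histone promoter elements differ between both kinds of gene. The 250 bases before the start site were taken from RefSeq (GRCm38.p6), with 61 replication-dependent and 14 variant genes matched. Each sequence below is the last 120 bases before the start, on the gene's strand, with the matches in capitals.
Hist1h1c, chr13:23738687-23738806, plus strand: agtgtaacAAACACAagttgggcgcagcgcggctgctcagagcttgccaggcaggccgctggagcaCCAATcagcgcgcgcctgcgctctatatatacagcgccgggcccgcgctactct
Hist2h2bb, chr3:96269580-96269699, plus strand: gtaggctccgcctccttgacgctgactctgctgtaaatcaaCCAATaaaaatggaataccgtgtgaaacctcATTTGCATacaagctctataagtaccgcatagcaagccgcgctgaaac
H3f3b, chr11:116024505-116024624, minus strand: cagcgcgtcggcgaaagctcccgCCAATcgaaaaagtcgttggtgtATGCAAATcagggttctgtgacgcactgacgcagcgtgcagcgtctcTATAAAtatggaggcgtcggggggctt
H1f0, chr15:79028092-79028211, plus strand: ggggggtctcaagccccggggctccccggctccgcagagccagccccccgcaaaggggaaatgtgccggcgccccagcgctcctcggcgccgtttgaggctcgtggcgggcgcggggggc
The capitals mark AAACACA, a box of H1 promoters, CCAAT, ATTTGCAT, the octamer (ATGCAAAT when read from the other strand), and TATAAA. In the H1f0 stretch none of these was found. AAACACA, searched on both strands, was in 5 of 6 replication-dependent H1 promoters and in 7.2% of all 27025 promoters in the table. The octamer, searched on both strands, was in 7 of 17 replication-dependent H2A and 7 of 16 H2B promoters, in none of the H1, H3 and H4 promoters, and in 1.81% of all. CCAAT on both strands was in 50 of 61 replication-dependent promoters (82%), in 9 of 14 variant promoters and in 37.5% of all. TATAAA on the gene's strand was in 24 of the 61 (39.3%) and in 8.94% of all. Among the 14 variant promoters only that of H3f3b held the octamer or TATAAA. A match describes letters in a window, not a bound site.

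The genes that serve histone supply are set beside all tested genes, of which 37.5% were higher and 38% lower. Of 18 genes for histone transcription and 3′ end processing, 10 were higher, 2 were lower and 6 did not pass, with a median log2 fold change of 0.14. Slbp, the stem-loop binding protein, had 215 ± 6.69 CPM in the Prdm16 libraries and 147 ± 5.79 CPM in the Puro libraries (SD, n = 3 each; 0.55 ± 0.04). Srrt, a cap-associated factor used in histone mRNA processing, was higher (0.56 ± 0.04). The 2 that were lower were Sympk, the scaffold of the cleavage complex (−0.48 ± 0.04), and, named after its value was seen, Lsm10, a subunit of the U7 particle that guides the cleavage (−0.49 ± 0.06). In the same list, and also named after their values were seen, Lsm11 did not pass (−0.15 ± 0.06) and Zfp473 had the largest increase (0.87 ± 0.15). Ncbp1, a cap-binding subunit, had a log2 fold change of −0.07 and did not pass. Of 25 histone chaperones and related genes, 16 were higher, 6 were lower and 3 did not pass (median 0.23). Among the most abundant of these, Nap1l1 (0.49), Hjurp (0.35) and Rbbp4 (0.22) were higher, and Npm1 (−0.14) was lower. Named after their values were seen, Asf1b, an H3 and H4 chaperone of dividing cells, had 1.55 ± 0.05 and Cenpa, the centromeric H3 that the symbol rule leaves out, had 1.42 ± 0.06. Besides Npm1, the lower genes were Daxx (−0.57), Ubn1 (−0.40), Chaf1b (−0.39), Ubn2 (−0.20) and Supt6 (−0.12), also named after their values were seen.

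Cell cycle genes are set beside the same shares of all tested genes, 37.5% higher and 38% lower. Of 30 S phase genes, 21 were higher, 3 were lower and 6 did not pass, with a median log2 fold change of 0.28. Among the most abundant, Rrm1 (0.36) and Mcm2 (0.25) were higher, while Mcm6 (0.06) and Mcm4 (−0.07) did not pass. The 3 lower genes, named after their values were seen, were the replication factor genes Prim1 (−0.23), Rfc4 (−0.22) and Cdc45 (−0.17). All 20 G2 and M phase genes were higher (median 1.03), among them Top2a (1.26 ± 0.04), Mki67 (1.38 ± 0.05), Kif11 (1.60 ± 0.04) and Cdk1 (0.79 ± 0.04). Of 11 tested cell cycle exit genes, 7 were higher, 3 were lower and 1 did not pass. Cdkn2a was lower (−0.80), as were, named after their values were seen, the cell cycle inhibitor genes Cdkn1a (−1.43) and Cdkn2b (−0.89). Cdkn2c (0.79) and Rbl1 (0.69) were higher, and Btg1 did not pass (−0.01). The median of the 22 tested replication-dependent genes was −2.67 on the same scale, beside −0.01 over all tested genes, and 16 of the 22 were tested through the Puro group alone.

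**Figure D4:**
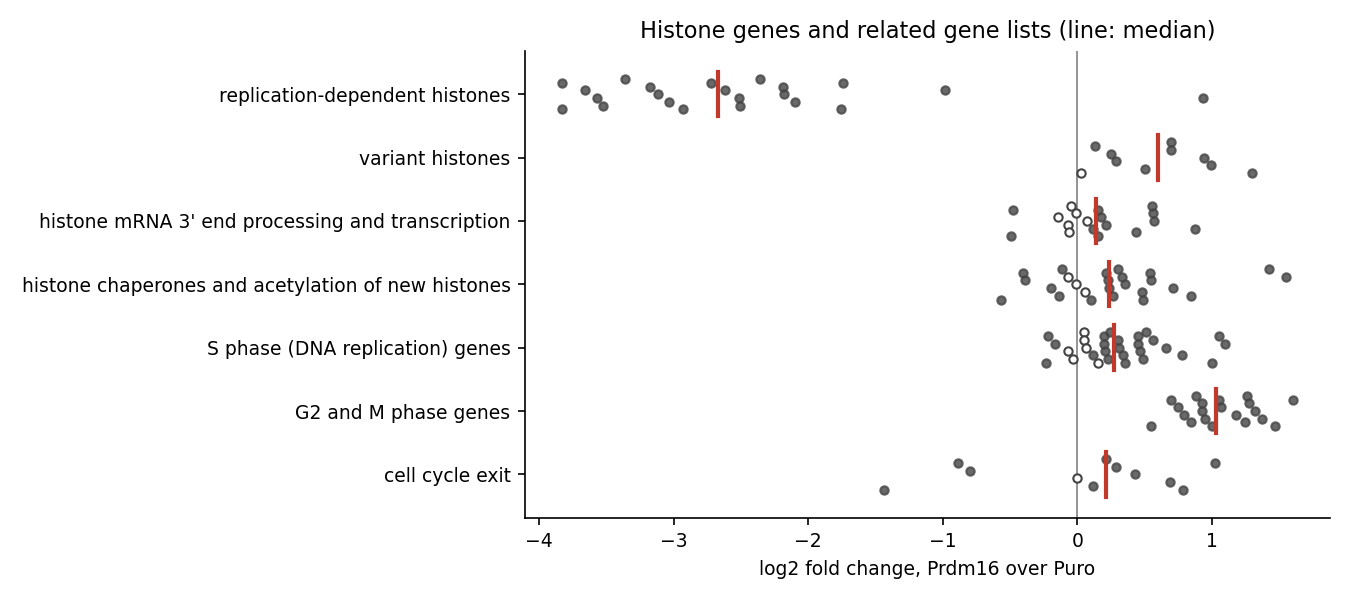
Log2 fold change, Prdm16 over Puro, of every tested gene in 2 histone groups and 5 related lists; each point is 1 gene, filled where it passed the test and open where it did not, and red lines are medians. Medians were −2.67 for replication-dependent and 0.60 for variant histones, 0.14 for histone mRNA processing, 0.23 for chaperones, 0.28 for S phase, 1.03 for G2 and M phase and 0.21 for cell cycle exit genes.

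Markers of cell types also differed between the groups. The 10 stromal markers summed to 1478 to 1578 CPM in Prdm16 libraries and to 2702 to 3173 CPM in Puro libraries, with 6 of 10 above 1 CPM in Prdm16 and 7 of 10 in Puro libraries. The markers did not move together: Col1a1 averaged 145 CPM in Prdm16 and 1705 CPM in Puro libraries and Pdgfrb 195 CPM in Prdm16 and 555 CPM in Puro libraries, while Ly6a averaged 988 CPM in Prdm16 and 376 CPM in Puro libraries. Pdgfra, a defining receptor of adipose progenitors, had 188 CPM in Prdm16 and 199 CPM in Puro libraries, while the progenitor markers Dpp4 and Pi16 were near 0 in both groups. Markers of other cells were scarce, apart from the adipocyte ones. The 6 adipocyte markers summed to 590 to 693 CPM in Prdm16 and 157 to 177 CPM in Puro libraries. Most of that was Fabp4, at 551 CPM in Prdm16 and 115 CPM in Puro libraries, and Pparg, at 74.5 and 54.3 CPM. Cidec (3.46 CPM in Prdm16 and 0.0895 CPM in Puro libraries) and Adipoq (2.36 and 0.279 CPM) were higher at low levels. Plin1 was near 0 in both groups, at 0.0965 CPM in Prdm16 and 0.0990 CPM in Puro libraries. Lep had 5 counts in Prdm16 and 0 in Puro libraries. The 7 markers of mammary epithelium, which the inguinal depot can hold, summed to 26.7 to 28.2 CPM in Prdm16 and 0.258 to 0.328 CPM in Puro libraries. Above 1 CPM were 4 of 7 in Prdm16 libraries (Krt18, Cdh1, Esrp1 and Epcam) and 0 of 7 in Puro libraries. The keratin genes Krt8 (0.0445 CPM in Prdm16 and 0.0418 CPM in Puro libraries), Krt14 (0.0210 and 0.00956) and Krt5 (0.0345 and 0.0323) were near 0. The 6 endothelial markers summed to 9.37 to 12.1 CPM in Prdm16 and 3.32 to 3.76 CPM in Puro libraries. The defining gene Cdh5 was at 0 in all libraries, and Tek was most of the sum in the Prdm16 libraries. Vwf went the other way, with 0.298 CPM in Prdm16 and 1.78 CPM in Puro libraries. Endothelial and immune markers were thus at low levels throughout. The 6 macrophage markers summed to 4.73 to 4.94 CPM in Prdm16 and 4.999 to 6.28 CPM in Puro libraries, with Emr1 at 0. Most of that sum was Cd68 (4.60 CPM in Prdm16 and 3.85 CPM in Puro libraries), while Lyz2 averaged 0.0330 and 1.46 CPM. The 5 lymphocyte markers summed to at most 0.207 CPM in any library. The part of these differences in the histone values was not tested.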

How the data were processed

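The authors deposited whole-number counts per gene symbol, with no normalization, for 6 libraries of polyadenylated RNA. Extraction used Trizol and a PureLink kit and library preparation a TruSeq kit, per the labels' protocols. The submitters' processing notes name STAR, featureCounts, Subread and mm9. Versions, the strand setting and the handling of reads that fit several copies are not in the sources used here.

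The counts were fitted in edgeR 4.0.16 (R 4.3.3) after TMM scaling. The filterByExpr function with a minimum count of 10 kept 13805 genes, and the 10392 left out held 0.0297% of all counts. Prdm16 and Puro libraries were set against each other with the two-sided quasi-likelihood test, adjusted after Benjamini and Hochberg across all tested genes, at an adjusted p of 0.05. The procedure was tested on simulated data. The common biological coefficient of variation was 4.78%. Replicate pairs differed by a chi-square of 2.08 to 8.85 per gene, above sampling noise, so each library was counted.

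Ratios of untested rows have exact 95% binomial intervals, and these and the floor cover counting error only. Lengths, proteins and stem-loops came from GENCODE M21 and promoters from RefSeq, matched by symbol or synonym (83 of 84 rows had a RefSeq name). As the files use mm9, these served by name only.

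Named with values were every tested variant gene, the 4 most abundant tested genes of each replication-dependent class, the 6 largest increases and decreases, and up to 4 most abundant genes of each related list. Others were named after their values were seen. The members and lists were chosen with earlier results of these data known. Alternatives were RLE and upper-quartile scaling, 2 other low-count filters, DESeq2 1.42.0, limma-voom (limma 3.58.1), a replicate block, Prdm16 left out, an adjusted p of 0.01, chromosome medians or a length and GC trend removed, and each library left out. Summing copies of the same protein, and the sums without Hist1h2bc and Hist1h1c, were added after seeing the data.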

Additional observations from a re-analysis of the deposited data

How the results depend on the processing

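As reported, 10 histone genes were higher and 21 lower. The number called higher was 9 or 10 under every alternative. The number called lower depended on which rows were tested, and the lower genes were all replication-dependent. Without a low-count filter, 37 of 61 replication-dependent rows tested were lower, where 60.0% of all genes tested were called in either direction. With at least 1 CPM in at least 3 libraries it was 9 of 10 (76.5% of all genes called), and with DESeq2 31 of 55 (58.6%). With copies of the same protein summed it was 15 of 16 (75.7%), against 21 of 22 (75.6%) in the main fit. Leaving out each library in turn gave 21 to 25 lower and 9 to 10 higher, with 70.7% to 74.8% of all genes called. With the replicate number as a block there were 10 higher and 21 lower, with 73.1% of all genes called. The numbers did not pair the libraries: the correlations of same-numbered deviations were −0.16, 0.10 and −0.07, and 1 of 6 libraries correlated best with its own number. Of 520 comparisons of single histone genes with an alternative, 510 kept direction and call, 6 lost the call (all H2afx, given above) and 4 turned sign. Those 4 were H2afj, which did not pass the test: −0.0284 with chromosome medians removed, and −0.0543 to 0.164 when each library was left out, below 0 without Prdm16 replicate 1, Puro replicate 1 or Puro replicate 2. Of the related genes that did not pass, Mcm4 turned to 0.0917 with chromosome medians removed. Btg1 turned to 0.0141 without a filter, 0.00237 with DESeq2, 0.00417 with copies summed and 0.0302 with chromosome medians removed, and spanned −0.0391 to 0.04996 when each library was left out. Npm1 lost its call with chromosome medians removed (−0.0865). The cause of these changes was not tested. At 28169059 to 35798201 counts a library, 46 of the 68 replication-dependent rows were too rare to test, so most single copies have no call. Proteins of RefSeq were not used here, so copies were grouped by translated GENCODE M21 coding sequences.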

Other observations

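Non-histone genes lie between the histone genes of the Hist1 cluster on chromosome 13, in the order given by RefSeq. Of 9 that were tested, 2 were higher, 3 were lower and 4 did not pass, with a median log2 fold change of −0.05, where 37.5% of all tested genes were higher and 38% lower. The zinc-finger gene Zfp184 had 15.0 ± 0.873 CPM in the Prdm16 libraries and 11.8 ± 1.12 CPM in the Puro libraries (SD, n = 3 each; 0.34 ± 0.08), and the protease gene Prss16 was also higher (0.81 ± 0.09). The sodium and phosphate transporter gene Slc17a1 had 0.0980 ± 0.0956 CPM in Prdm16 libraries and 7.59 ± 0.933 CPM in Puro libraries (−6.30 ± 0.29). The butyrophilin genes Btn2a2 (−2.89 ± 0.20) and Btn1a1 (−1.68 ± 0.31) were lower too. Hfe, the iron regulator mutated in haemochromatosis, did not pass (0.02), and nor did Abt1, Zfp322a and C230035I16Rik. These were all of the 9 genes, and no explanation was tested.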
